A study of Mus musculus with 22 samples.

Results

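The genes described here are those of the MCM helicase and of origin licensing in mouse B cells with and without the Eμ-Myc transgene: Mcm2, Mcm3, Mcm4, Mcm5, Mcm6, Mcm7, Mcm10, Cdc6, Cdt1 and Gmnn. Their probe sets were taken by gene symbol, which gave 23 of the 22690 probe sets on the array, for 10 of its 12393 genes with a symbol of their own. Of these, 20 passed the filter on dim signals (a log2 intensity above 4 on at least 4 of the 22 arrays) and were tested. The other 3 lay below log2 4 on every array: Mcm3 1420029_at, Mcm10 1433407_at and Cdt1 1455791_at. Each of those genes had another probe set that passed.

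Before a cell copies its DNA, it marks the places where copying may start. The origin recognition complex sits on these origins, Cdc6 joins it, and Cdt1 then brings the ring-shaped Mcm2 to Mcm7 complex, which is locked around the DNA as an inactive helicase. Geminin, the product of Gmnn, binds Cdt1 during S and G2 phase so that no origin is licensed again in the same cycle. Mcm10 acts later, when the loaded helicase is switched on and the forks leave the origin. Resting lymphocytes hold little of this machinery and make it when they enter the cycle.

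Transcripts of 3 groups of B cells from C57Bl/6 mice were profiled on Affymetrix MOE430A arrays. The 4 wild type and 5 premalignant arrays came from littermates 4 to 6 weeks old, and their labels name B220+ cells, B220 being a surface marker of the B lineage. The premalignant cells carried the Eμ-Myc transgene, in which an immunoglobulin heavy chain enhancer drives Myc in B lineage cells, and were taken before lymphoma. The 13 malignant arrays were of Eμ-Myc lymphomas from 13 independent mice. Their labels carry the same age, and no comparison here uses it. Cells were isolated on beads against B220 or IgM from bone marrow or spleen, without a record of which tissue went onto which array. All samples are labelled as biological replicates, and whether each wild type and premalignant sample stands for 1 mouse is not said, so p-values measure the spread between these samples. Precision is set by how few arrays the smaller groups have.

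The promoters of these genes are shown because letters known to be bound by E2F, the factor family that drives S phase genes, recur in them. RefSeq (GRCm38.p6) windows from 250 bases before to 50 bases after the start were at hand for 8 of the 10 genes, in 9 windows, of which Mcm7 has 2. The words TTTGGCGC, TTTCGCGC, TTTCCCGC and TTTGCCGC were searched on both strands. They were found in 6 of the 9 windows, for 6 of 8 genes, and in 744 of all 32851 windows of the same length (2.26%). Mcm2 and Mcm10 held none of these letters in their windows. The stretches below are read 5′ to 3′ on the strand of the gene, with the words in capitals. Where 2 words on opposite strands overlap, as in Mcm5 and Mcm6, the capitals run on. The stretch of Mcm5 lies at chr8:75109309-75109458 on the plus strand and that of Mcm6 at chr1:128359706-128359855 on the minus strand, both upstream of the start. For Mcm3 (chr1:20820266-20820295, minus strand), Mcm7 (chr5:138171849-138171878, minus strand) and Cdt1 (chr8:122568035-122568064, plus strand) 30 bases just downstream of the start are given. For Cdc6 (chr11:98908002-98908031, plus strand) 30 upstream bases are given.
Mcm5: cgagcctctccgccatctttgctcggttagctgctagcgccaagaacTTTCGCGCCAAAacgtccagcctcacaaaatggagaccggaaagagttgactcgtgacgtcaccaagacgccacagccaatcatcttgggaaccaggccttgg
Mcm6: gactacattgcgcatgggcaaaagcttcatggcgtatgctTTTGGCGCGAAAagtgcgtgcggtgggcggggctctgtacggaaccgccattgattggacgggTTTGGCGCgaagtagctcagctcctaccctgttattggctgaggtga
Mcm3: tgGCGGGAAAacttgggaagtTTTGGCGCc
Mcm7: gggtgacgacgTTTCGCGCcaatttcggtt
Cdc6: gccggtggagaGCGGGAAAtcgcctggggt
Cdt1: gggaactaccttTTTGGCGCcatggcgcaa

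Mcm5 and Mcm6 each hold such an overlapping pair, of TTTCGCGC with TTTGGCGC, and Mcm6 holds a further word nearer its start. Mcm3 also holds 2 words, on opposite strands. CCAAT, the word bound by NF-Y, was found on either strand in 7 of the 9 windows, against 37.4% of all windows. In Mcm7 a CCAAT overlaps the E2F word shown by a single base. The E-box CACGTG, the word preferred by Myc with Max, was in 0 of the 9 windows and in 7.15% of all windows. A match describes the letters and not a bound site.

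The transgene showed in the Myc probe set 1424942_a_at, which read 7.39, 6.74, 6.96 and 7.07 (log2) on the wild type arrays and 10.01, 9.53, 10.21, 10.05 and 10.04 on the premalignant arrays. The lymphomas ran from 8.67 through a median of 9.62 to 10.76. Myc was thus above every wild type array on all transgenic arrays, and the lymphomas overlapped the premalignant arrays (change −0.38, adjusted p = 0.252 by limma with Benjamini-Hochberg adjustment over all 10789 probe sets tested, as for every adjusted p here). B cell markers were above the filter in all 3 groups but fell at both steps. At the first step 0 of 6 tested defining genes rose and 3 fell (Cd79b, Ptprc and Blnk), and at the second 0 rose and 5 fell. Their summed intensity ran from 22676.9 to 27079.1 in wild type arrays, from 16445.5 to 20751.0 in premalignant arrays and from 3629.5 to 9309.9 in lymphomas. Pax5 was below the filter. Of 6 tested pro-B and pre-B cell genes 2 rose at the first step and 0 fell. Rag1 was at least 4.23-fold higher (adjusted p = 2.51e-05) and Vpreb3 1.99-fold higher (adjusted p = 0.0225). The wild type mean of Rag1 lay below the filter level, so Rag1 passed the filter only through the transgenic arrays. None of the list passed at the second step. Its summed intensity ran from 257.0 to 406.1 in wild type, from 372.3 to 799.3 in premalignant and from 365.1 to 7312.9 in lymphoma arrays. Stroma and endothelium genes summed to 127.8 to 186.3 in premalignant arrays and to 291.6 to 3547.7 in lymphomas, with 3 of 5 tested higher and 1 lower. The lower one was Pecam1, the tested endothelial marker, which was also lower at the first step, and Cdh5 and Kdr, endothelial too, were below the filter. Monocyte and macrophage genes summed to 413.2 to 1719.4 in premalignant arrays and to 879.8 to 5139.4 in lymphomas, with 2 of 7 tested higher (Lyz2 and Cd68) and 2 lower (Csf1r and Adgre1). Plasma cell genes summed to 1237.1 to 3193.3 and to 217.0 to 917.2, with 3 of 4 tested lower, among them Jchain. Gzma, the natural killer cell gene that passed the filter, was lower, and 7 of 8 T cell markers were below the filter. Neutrophil genes summed to 92.8 to 659.5 in wild type, 467.3 to 951.0 in premalignant and 81.4 to 6254.6 in lymphoma arrays. Of 5 tested, 0 passed at either step. Erythroid genes summed to 170.9 to 1430.3, 376.7 to 3650.7 and 661.6 to 2012.9 in the same order. Of 3 tested, 1 was higher and 0 lower at each step. The log2 difference of the beta-actin 3′ and 5′ probe sets, a sign of RNA or labelling quality, was 0.77 ± 0.095 (SD, n = 4) in wild type, 0.70 ± 0.085 (SD, n = 5) in premalignant and 1.93 ± 0.37 (SD, n = 13) in malignant arrays. The fall of the B cell genes moved with both steps, and some of the other shifts were present at the first step too. In wild type arrays the stroma and endothelium sum ran from 253.8 to 289.4, with 1 of 5 tested genes lower in premalignant cells. The plasma cell sum ran from 2663.1 to 4592.5 in wild type arrays, with 1 of 4 tested genes lower in premalignant cells. The beta-actin difference moved with the second step, from premalignant cells to lymphomas. The part of all these shifts in the results was not tested. The arrays least correlated with the rest of their group were wild type replicate 2 (mean r = 0.956) and premalignant replicate 1 (mean r = 0.940).

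In premalignant cells the whole Mcm2 to Mcm7 ring rose. All 6 genes were higher than in wild type B cells by every probe set that passed the filter (15 of 15), by 0.79 to 1.80 on the log2 scale, with adjusted p from 0.000295 to 0.0174. Over the 10 genes, 18 of 20 tested probe sets were higher and 0 lower, while 12.7% of all probe sets tested were higher and 11.7% lower. The median change of the 20 was 1.50 and that of all probe sets tested was −0.03. On 17 of the 20 the premalignant arrays were all above the wild type arrays, as on 11.5% of all probe sets. Centring the arrays on the hybridisation spikes moved the median of all probe sets to 0.23 and the calls over the array from 1372 higher and 1263 lower to 840 and 159, and left 17 of the 20 higher. In these bulk samples more cells in cycle and more RNA per cell cannot be told apart. Nor can either be told apart from the shifts in cell markers given above.

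Mcm5 1415945_at, the single Mcm5 probe set, read 6.60, 6.80, 6.52 and 6.72 on the wild type arrays and 8.82, 8.30, 8.21, 7.80 and 7.38 on the premalignant arrays. The groups did not overlap, although premalignant replicates 1 and 5 differed by more than a log2 unit. The difference was 1.44 ± 0.25 (SE), a 2.71-fold change (adjusted p = 0.00273). Mcm6 1416251_at read 8.05, 8.05, 7.98 and 8.06 in wild type and 9.74, 9.48, 9.77, 9.32 and 8.86 in premalignant cells. It rose 2.64-fold (log2 change 1.40 ± 0.19 SE, adjusted p = 0.000633). The other Mcm6 probe set, 1438852_x_at, whose suffix marks probes that may also bind related transcripts, rose 3.48-fold.

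Mcm2 1448777_at stood at 6.24, 5.96, 6.35 and 6.55 in wild type and at 7.69, 7.88, 8.28, 7.95 and 7.52 in premalignant arrays. All premalignant values were above all wild type values, a 3.01-fold change (adjusted p = 0.000295). The other Mcm2 probe set, 1434079_s_at, rose 2.09-fold (adjusted p = 0.00168). Mcm7, the ring member whose gene also carries the Mir106b, Mir93 and Mir25 hairpins, was measured by 4 probe sets. They rose 3.17-fold (1416030_a_at), 2.89-fold (1416031_s_at), 2.38-fold (1438320_s_at) and 2.95-fold (1439269_x_at). For 1438320_s_at, wild type replicate 2 read 9.94 where the other wild type arrays read 9.05, 9.10 and 9.11. The lowest premalignant array, at 10.06, was still above it.

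Mcm4 was the ring gene whose probe sets differed most at the first step. Mcm4 1416214_at read 7.38, 7.60, 7.38 and 7.47 in wild type and 8.81, 8.15, 8.48, 7.99 and 7.80 in premalignant cells, with no overlap and a 1.72-fold change (adjusted p = 0.0174). This was the smallest change of the ring, and its adjusted p became 0.0775 when arrays were centred on the spikes. Mcm4 1436708_x_at read 5.23, 4.89, 5.39 and 5.46 in wild type and 5.36, 7.62, 7.30, 7.29 and 7.05 in premalignant cells. Premalignant replicate 1 alone stayed at the wild type level, while the same array was the highest of its group for 1416214_at. The difference between both Mcm4 probe sets within an array did not change beyond the spread at this step (0.90, exact permutation p = 0.206).

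Mcm3 was read by 4 probe sets that passed, and at the first step they told the same direction. They rose 2.75-fold (1420028_s_at), 3.05-fold (1426652_at), 2.48-fold (1426653_at) and 2.35-fold (1449705_x_at), with no overlap between groups for any of the 4. Mcm3 1426652_at spread from 5.79 to 7.74 among the premalignant arrays, with replicate 5 lowest and replicate 1 highest.

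**Figure D1:**
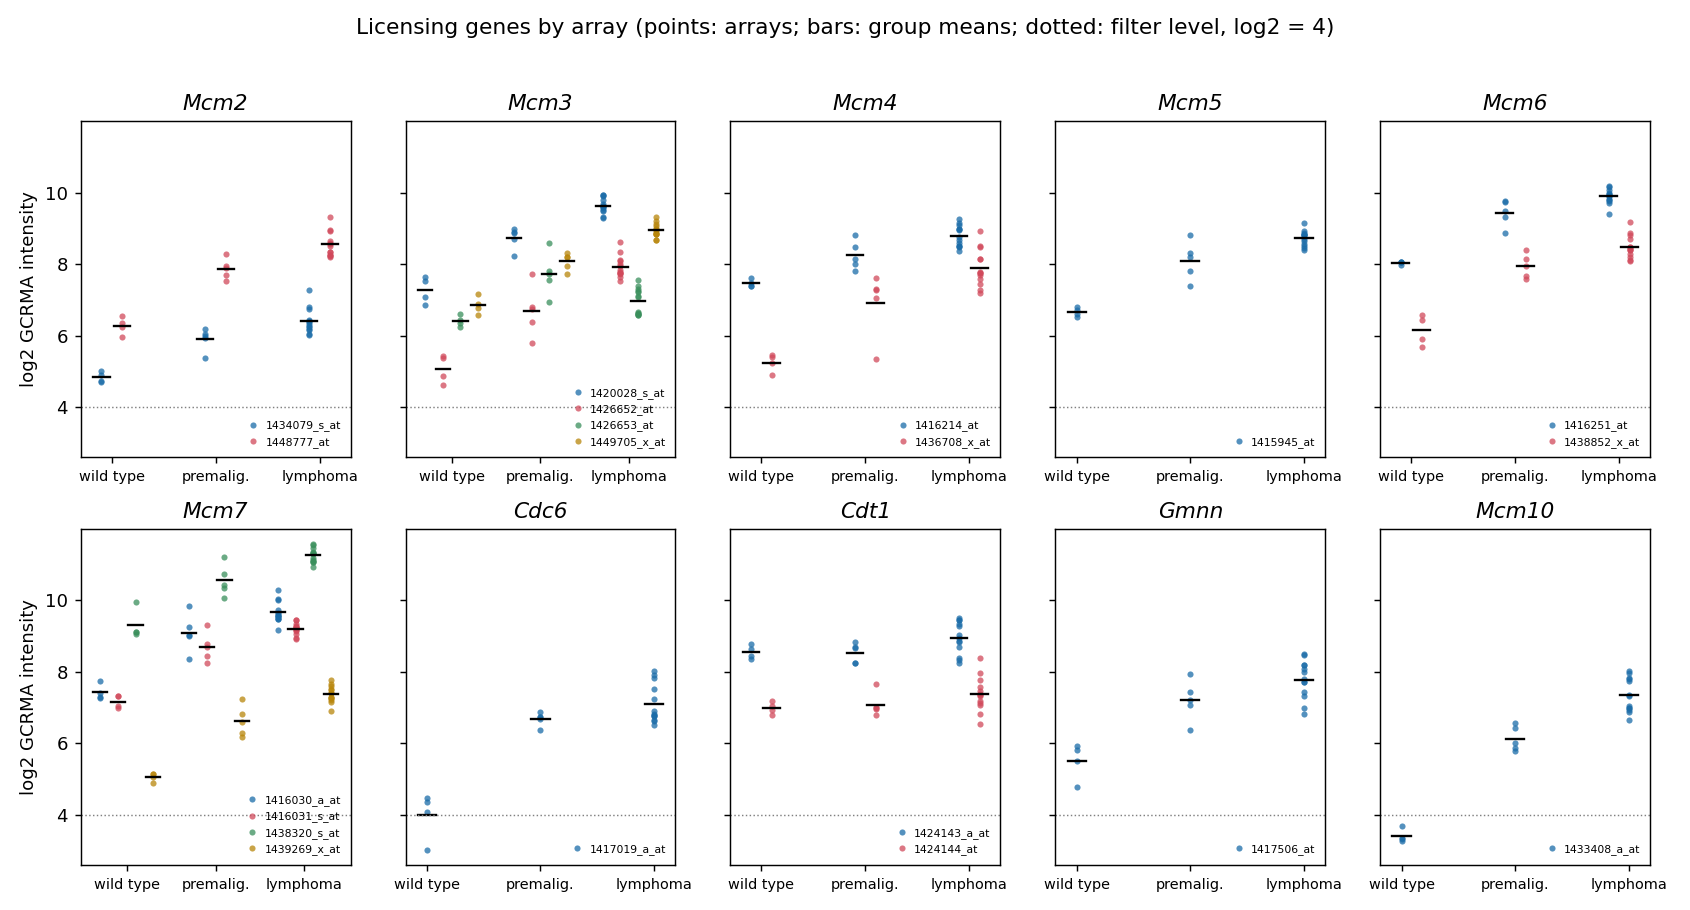
Log2 GCRMA intensity (vertical axis) of each licensing gene probe set that passed the filter, by array, in wild type (n = 4), premalignant (n = 5) and lymphoma (n = 13) samples; points are arrays, black bars group means, and colours tell the probe sets of a gene apart. For Mcm5 the wild type arrays lie between 6.52 and 6.80 and the premalignant arrays between 7.38 and 8.82, whereas both Cdt1 probe sets overlap across all 3 groups.

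Cdc6, the ATPase that joins the origin recognition complex and is needed to load the ring, had 1 probe set, 1417019_a_at. It read 3.02, 4.36, 4.07 and 4.47 on the wild type arrays, at or near the filter level, and 6.68, 6.88, 6.73, 6.73 and 6.38 on the premalignant arrays. The premalignant values were close together and far above all wild type arrays. Cdc6 was at least 6.41-fold higher (fitted log2 change 2.70 ± 0.27 SE, adjusted p = 0.000159), the wild type mean of 3.98 being set to 4 for the fold.

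Mcm10 1433408_a_at, the switch-on factor, was below log2 4 on every wild type array (3.28, 3.33, 3.36 and 3.70) and read 6.41, 5.88, 6.57, 6.00 and 5.79 on the premalignant arrays. It passed the filter only through the transgenic arrays. The premalignant mean was at least 4.37-fold above the filter level to which the wild type mean was set (adjusted p = 2.51e-05).

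Gmnn rose with the ring, and neither tested probe set of Cdt1, the factor that geminin inhibits, passed the test. Gmnn 1417506_at read 5.93, 5.51, 4.77 and 5.81 in wild type and 7.94, 7.19, 7.43, 7.07 and 6.37 in premalignant cells. The groups did not overlap and the change was 3.24-fold (log2 1.70 ± 0.32 SE, adjusted p = 0.0041). Cdt1 1424143_a_at, by contrast, read 8.35, 8.77, 8.63 and 8.45 in wild type and 8.83, 8.26, 8.68, 8.66 and 8.23 in premalignant cells. Its groups overlapped fully, with a change of −0.02 whose 95% interval ran from −0.39 to 0.36 (adjusted p = 0.957). The second Cdt1 probe set, 1424144_at, read 6.93, 7.04, 6.78 and 7.19 against 7.65, 6.78, 7.01, 6.98 and 6.94. Only premalignant replicate 1 stood above wild type, and the change was 0.09 with an interval from −0.32 to 0.50 (adjusted p = 0.772). On the deposited scaling the intervals exclude a rise of the size seen for any Mcm2 to Mcm7 probe set, the smallest of which was 0.79.

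Because both genes are read on the same array, their balance was also taken within each array. Cdt1 1424143_a_at minus Gmnn was 3.04 ± 0.65 (SD, n = 4) in wild type and 1.33 ± 0.40 (SD, n = 5) in premalignant cells on the log2 scale. The wild type arrays ran from 2.42 to 3.86 and the premalignant arrays from 0.89 to 1.86, without overlap. The fall of the difference by 1.71 had an exact two-sided permutation p of 0.0159, the smallest that 4 against 5 arrays allow (0.0239 adjusted over the 3 comparisons). In lymphomas the difference was 1.17 ± 0.60 (SD, n = 13) and did not differ from premalignant cells beyond the spread (exact permutation p = 0.569). The size of such a difference depends on the probes, so its change is informative and its level is not.

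**Figure D2:**
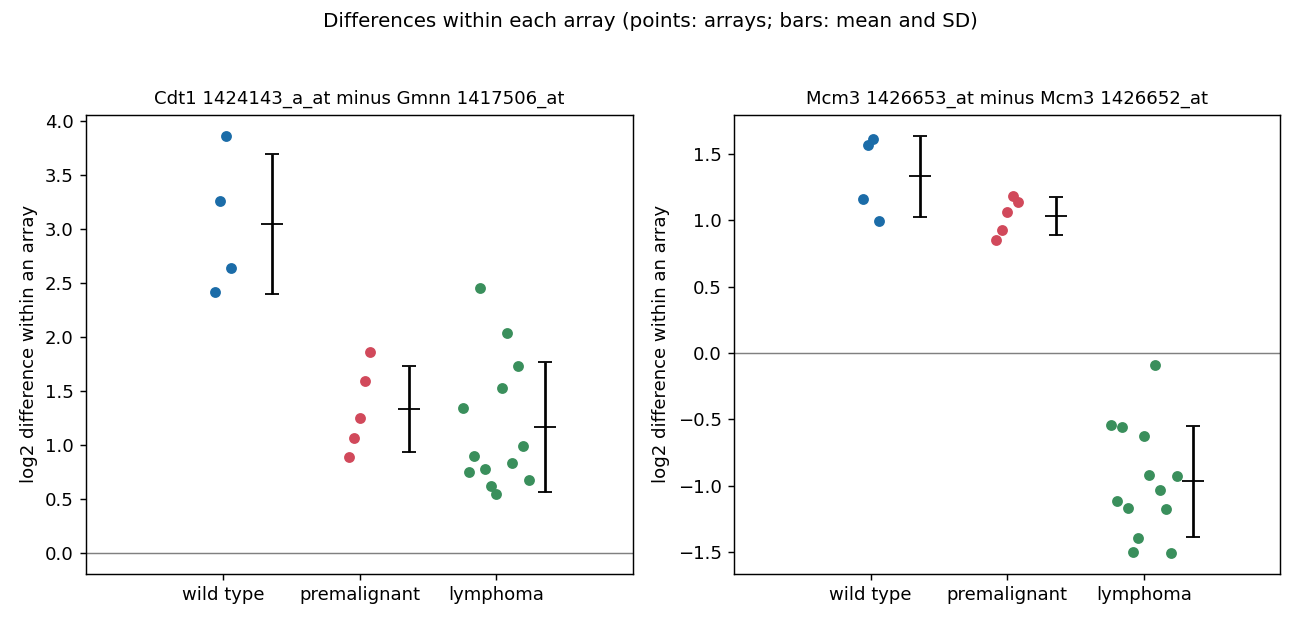
Log2 differences within each array (vertical axis) in wild type (n = 4), premalignant (n = 5) and lymphoma (n = 13) samples, for Cdt1 minus Gmnn (left) and for 2 probe sets of Mcm3 (right); points are arrays and bars give mean and SD. On the left the wild type arrays lie from 2.42 to 3.86, above the premalignant arrays at 0.89 to 1.86; on the right the lymphomas lie from −1.50 to −0.09, below every other array.

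From premalignant cells to lymphomas the ring genes rose again on nearly all their probe sets. In lymphomas 14 of the 15 Mcm2 to Mcm7 probe sets were higher than in premalignant cells and 1 was lower. Over the 10 genes 15 of 20 were higher and 1 lower, while 23.2% of all probe sets tested were higher and 19.9% lower. Their median change was 0.57 against 0.05 for all probe sets tested. On 3 of the 20 every lymphoma lay above every premalignant array, as on 5.72% of all probe sets: Mcm3 1420028_s_at, Mcm3 1449705_x_at and Mcm10 1433408_a_at. The count of 15 rested in part on single premalignant arrays: it was 11 without premalignant replicate 5, 12 without replicate 4, and 9 with spike centring, which moved the median of all probe sets to 0.18.

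The ring genes changed as follows at this step. Mcm5 rose 1.55-fold (adjusted p = 0.00603), the lymphomas running from 8.40 through a median of 8.80 to 9.15, so that premalignant replicate 1 at 8.82 was already among them. Mcm6 1416251_at rose 1.37-fold and 1438852_x_at 1.45-fold. Mcm2 1448777_at rose 1.61-fold, its lymphomas running from 8.20 through 8.49 to 9.31. The Mcm7 probe sets rose 1.42-fold to 1.69-fold. Mcm4 1416214_at rose 1.46-fold and Mcm4 1436708_x_at 1.96-fold, the latter losing its call without premalignant replicate 1 (adjusted p = 0.0764). With spike centring the adjusted p was 0.0501 for Mcm5, 0.0813 for Mcm6 1416251_at, 0.0631 for Mcm4 1416214_at and 0.0647 for Mcm2 1434079_s_at.

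Mcm3 gave opposite answers from its probe sets. Here 3 of them rose in lymphomas, by 1.87-fold (1420028_s_at, adjusted p = 2.86e-05), 2.36-fold (1426652_at, adjusted p = 0.000187) and 1.82-fold (1449705_x_at, adjusted p = 1.43e-05). Mcm3 1426653_at fell 1.69-fold (log2 change −0.76 ± 0.22 SE, adjusted p = 0.00874). On that probe set the premalignant arrays read 8.59, 7.72, 7.81, 7.57 and 6.93 and the lymphomas ran from 6.57 through 7.08 to 7.54, so that 4 of 5 premalignant arrays lay above every lymphoma. Within arrays, 1426653_at minus 1426652_at was 1.33 ± 0.30 (SD, n = 4) in wild type, 1.03 ± 0.14 (SD, n = 5) in premalignant cells and −0.97 ± 0.42 (SD, n = 13) in lymphomas. The change of −2.00 at the second step had an exact permutation p of 0.000233, the smallest possible for 5 against 13 arrays. The test was added after the disagreement was seen. Its probe sets were picked as those with the lowest and the highest change at this same step, so the p is no independent evidence. When the tested Mcm3 probe sets were averaged, the gene was higher in lymphomas by 0.56 (adjusted p = 0.00498). The call of 1426653_at was lost with spike centring (change −0.62, adjusted p = 0.151). The part of the transcript that each probe set covers was not looked up here.

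Mcm10 rose at the second step as it had at the first. The lymphomas ran from 6.64 through 7.31 to 8.01 against 5.79 to 6.57 in premalignant cells, without overlap, a 2.32-fold rise (log2 1.22 ± 0.22 SE, adjusted p = 0.00024). For Cdc6 the lymphomas ran from 6.51 through 6.82 to 8.01 and held all premalignant values but 1 (6.38) within their range. Its change of 0.42 (95% interval −0.07 to 0.91) did not pass the test (adjusted p = 0.156). Gmnn ran from 6.81 through 7.78 to 8.50 in lymphomas, with a change of 0.58 (interval 0.02 to 1.14) that did not pass either (adjusted p = 0.0871), although it passed without premalignant replicate 1 (adjusted p = 0.0328) or malignant replicate 9 (adjusted p = 0.0385).

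Cdt1 1424143_a_at ran from 8.25 through 8.94 to 9.51 in lymphomas. Its change against premalignant cells was 0.41 (interval −0.01 to 0.84, adjusted p = 0.11), and against wild type it was 0.40 (interval −0.07 to 0.86, adjusted p = 0.128). With spike centring the latter was 0.79 and passed (adjusted p = 0.0359). Cdt1 1424144_at gave 0.31 (adjusted p = 0.274) and 0.40 (adjusted p = 0.155) in the same comparisons.

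**Figure D3:**
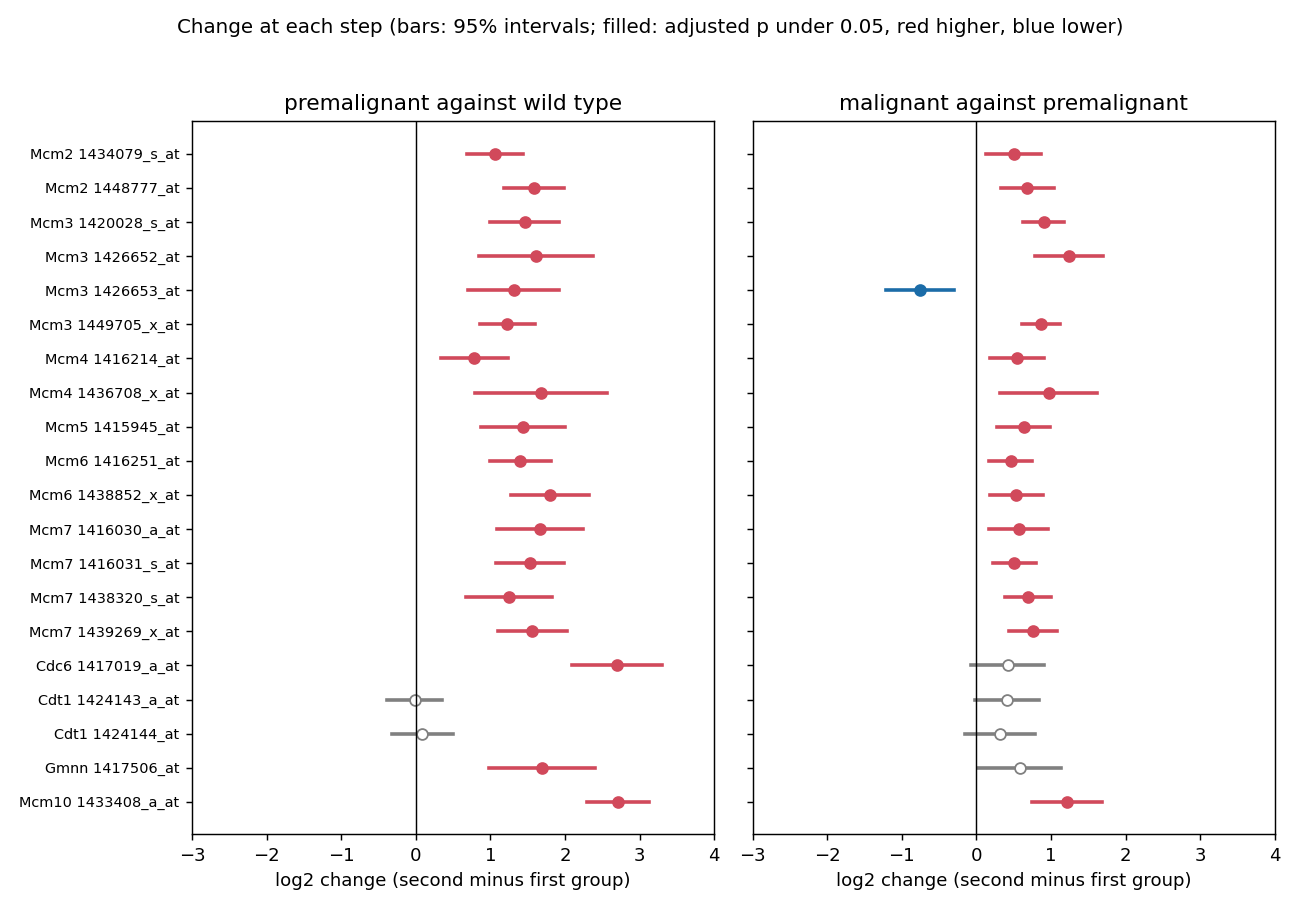
Log2 change (horizontal axis) of the 20 tested probe sets at the first step, premalignant (n = 5) against wild type (n = 4), on the left and at the second step, lymphomas (n = 13) against premalignant, on the right; points are fitted changes and lines 95% intervals, filled where the adjusted p was under 0.05 (red higher, blue lower). At the first step 18 points are filled and red, and both Cdt1 intervals cross 0; at the second step 15 are red and Mcm3 1426653_at is blue at −0.76.

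Whether the first step was larger than the second was tested directly, by a contrast of both steps in 1 limma fit over the 3 groups, which was added after the steps had been seen. Both steps share the premalignant arrays. Across the array 487 of 10789 probe sets (4.51%) had a more positive change at the first step than at the second, and 374 a more negative one. Cdc6 did so by 2.28 on the log2 scale (adjusted p = 0.00719), Mcm6 by 0.94 and 1.26 (adjusted p = 0.0295 and 0.0323), Mcm7 1416031_s_at by 1.03 (adjusted p = 0.0203) and Mcm3 1426653_at by 2.07 (adjusted p = 0.00294). The Cdc6 value rests on wild type arrays at or near the filter level (mean 3.98, replicate 1 at 3.02), so its size is uncertain. The contrast of Mcm10 also passed, but it rests on wild type values below the filter level, so its size is not given and it does not measure how far the steps differ. For the other 14 tested probe sets the difference between the steps did not pass the test. Among them were those of Mcm2, Mcm4, Mcm5, Cdt1 and Gmnn.

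Against wild type B cells, the lymphomas held the full licensing set at higher levels, Cdt1 excepted. In this comparison 18 of 20 tested probe sets were higher and 0 lower, while 30.5% of all probe sets tested were higher and 30.3% lower. Every lymphoma lay above every wild type array on 17 of the 20, as on 17.4% of all probe sets. Mcm10 was at least 10.2-fold higher and Cdc6 at least 8.58-fold higher. Gmnn was 4.84-fold, Mcm5 4.21-fold, Mcm6 1416251_at 3.62-fold, Mcm2 1448777_at 4.83-fold and Mcm7 1438320_s_at 3.86-fold higher. Mcm3 ranged from 1.47-fold (1426653_at) to 7.22-fold (1426652_at). Mcm4 ranged from 2.52-fold to 6.29-fold, and within arrays its x_at probe set gained 1.32 on the other (exact permutation p = 0.00084, the smallest possible). The Mcm4 test was added after its probe sets were seen to differ, so this p is no independent evidence.

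The genes that act around the ring were read through 1 probe set each, from lists of related factors. Their counts stand beside 12.7% higher and 11.7% lower among all probe sets at the first step, and 23.2% and 19.9% at the second. Of the origin recognition complex, 1 of 5 tested subunits rose at the first step, a share near that of all probe sets: Orc6, by 2.36-fold (adjusted p = 0.00542). Orc2 (change −0.18, adjusted p = 0.593) and Orc5 (1.13-fold, adjusted p = 0.525) did not pass. At the second step 3 of 5 rose, Orc2 by 2.33-fold (adjusted p = 7.14e-06), Orc6 by 1.71-fold and Orc5 by 1.60-fold. Orc1 was below the filter. The median change of the complex was 0.16 at the first step and 0.68 at the second.

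Cdc45 and the GINS subunits join the ring to make the working helicase. Of 7 tested helicase partners and firing factors 4 rose and 0 fell at the first step, with a median of 0.77. Cdc45 was at least 2.68-fold and Gins1 at least 2.49-fold higher, their wild type means lying below the filter level, and Wdhd1 (the fork protein And-1) rose 2.56-fold. At the second step 4 were called higher and 0 lower. Wdhd1 rose a further 4.32-fold and Gins1 1.92-fold. Recql4, a helicase that takes part in firing, was among the 4, but both its group means lay below the filter level, so no size is given. Cdc45 gave 1.44-fold (adjusted p = 0.0657). Mcmbp, which binds and unloads MCM proteins, rose 1.50-fold at the first step (adjusted p = 0.0157; 0.143 with spike centring) and did not pass at the second (adjusted p = 0.59).

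The kinases that fire licensed origins and their regulators rose at the first step in 7 of 8 cases (median 1.10). Ccna2, the S phase cyclin, rose 7.79-fold, Cdk1 6.06-fold and the phosphatase gene Cdc25a 2.56-fold. Cdc7, the kinase that phosphorylates the MCM ring, gave 1.64-fold at the first step (adjusted p = 0.0562) and rose 3.34-fold at the second (adjusted p = 1.01e-05). Its partner Dbf4 rose 2.24-fold and then 2.48-fold. Ccne1, the G1 cyclin, rose 2.06-fold and then 1.78-fold, so that 4 of 8 rose at the second step and 0 fell. These counts depend on the probe set read. With the mean of a gene's probe sets, Cdc7 passed at the first step (log2 change 0.61, adjusted p = 0.03). By that mean Ccna2 (0.86, adjusted p = 0.00289) and Cdc25a (1.26, adjusted p = 0.0002) passed at the second.

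The genes listed for the turnover of Cdt1 and geminin, which include Pcna and Usp7, were a mixed list. At the first step 5 of 12 rose and 0 fell, with a median of 0.51. Dtl, the adaptor that sends Cdt1 for destruction in S phase, was at least 3.99-fold higher (adjusted p = 0.000157). Its wild type mean lay below the filter level, so it passed the filter only through the transgenic arrays. Cks1b, a partner of Skp2, rose 4.95-fold and Cdc20, an activator of the anaphase-promoting complex, 4.02-fold. At the second step 6 rose and 2 fell. Those that fell were Skp1, by 1.53-fold (adjusted p = 0.00186), and Fzr1, by 1.48-fold (adjusted p = 0.0185). Skp2, a ubiquitin ligase subunit that targets Cdt1, rose 2.54-fold, Dtl 2.25-fold and Cdc20 2.04-fold. Dtl and Skp2 thus rose at both steps, and neither Cdt1 probe set passed at either. These are transcript levels, and any relation between the list and Cdt1 was not tested.

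Of the E2F family and the pocket proteins that restrain it, 2 of 9 rose and 1 fell at the first step (median 0.33) and 2 rose and 2 fell at the second (median 0.13). These counts are near the shares over all probe sets, and no shift of the list is read from them. Tfdp1, the E2F dimer partner, rose 4.27-fold and E2f8 2.93-fold, and Rbl2 (p130) fell 1.71-fold (adjusted p = 0.0186; 0.463 with spike centring). At the second step Tfdp1 rose 2.00-fold and E2f1 1.48-fold, and Rbl2 fell 2.03-fold and Rb1 1.98-fold. E2f1 gave 1.45-fold at the first step (adjusted p = 0.0816), and E2f3 was below the filter.

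At the replication fork, 15 of 25 genes rose and 1 fell at the first step (median 0.93), and 16 rose and 1 fell at the second (median 0.68). Pole, the leading strand polymerase, rose 4.39-fold and then 2.47-fold. Tipin, a fork protection factor, rose 3.52-fold and Lig1, the ligase of Okazaki fragments, 3.46-fold at the first step. Timeless, the partner of Tipin, rose 3.21-fold at the second step (adjusted p = 1.84e-05) after a change that did not pass at the first (adjusted p = 0.127). Prim2, a primase subunit, rose 2.72-fold at the second step. Pold4, a small subunit of polymerase delta, went the other way, falling 1.80-fold (adjusted p = 0.0275; 0.375 with spike centring) and then 3.29-fold (adjusted p = 0.000401).

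**Figure D4:**
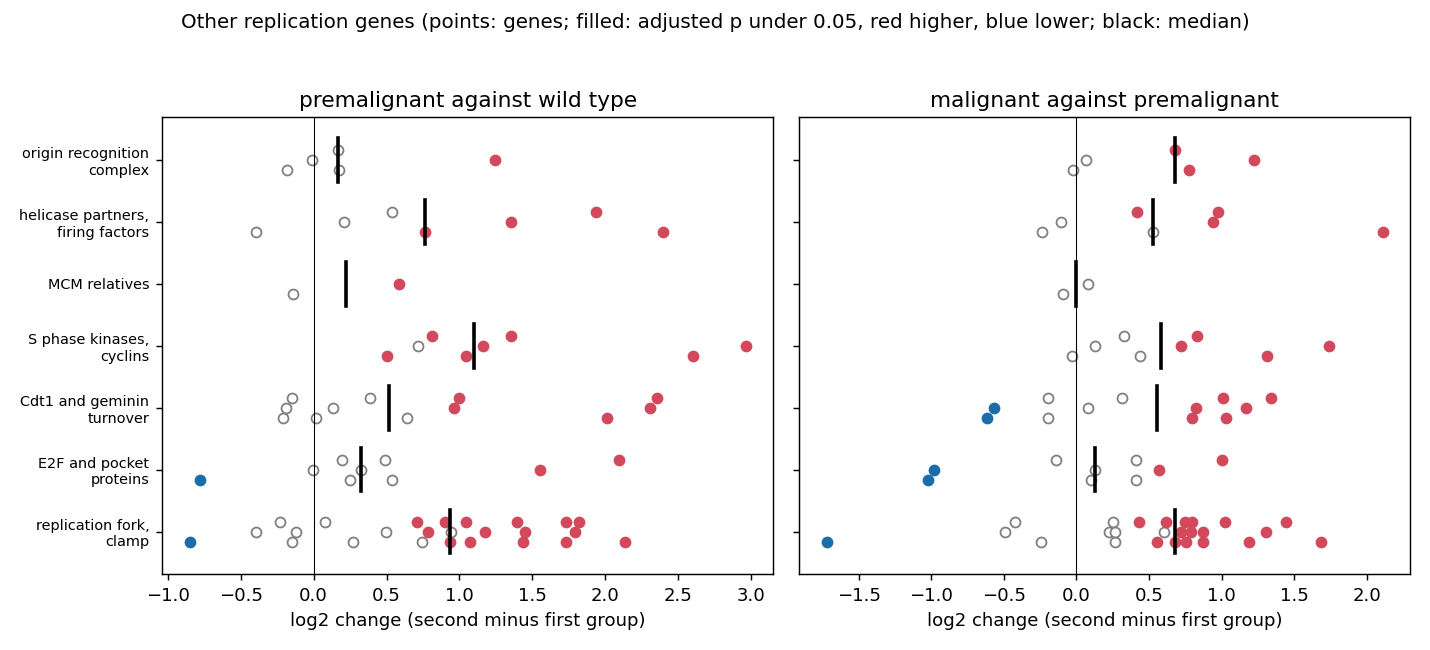
Log2 change (horizontal axis) of replication genes outside the licensing set, in 7 lists (rows), at the first step (left) and the second (right); points are genes read through 1 probe set each, filled where the adjusted p was under 0.05 (red higher, blue lower), and black lines are list medians. The origin recognition complex shows 1 filled point at the first step (Orc6) and 3 at the second, and Pold4 is the lowest fork gene in both panels.

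Among the 13 lymphomas the licensing genes differed in how much they varied. The SD was 0.16 for Mcm7 1416031_s_at and 0.20 for Mcm6 1416251_at, below that of most probe sets (percentiles 7.4 and 14.2 of all tested). Other probe sets of both genes varied more, up to percentiles 37.8 (Mcm7 1416030_a_at) and 47.2 (Mcm6 1438852_x_at). Among ring probe sets Mcm4 1436708_x_at reached percentile 80.7 (SD 0.51). The SD was 0.53 for Gmnn, 0.53 for Cdc6 and 0.47 for Mcm10, at percentiles 82.0, 82.3 and 76.3. Malignant replicates 1, 5 and 12 were highest for Cdc6 (7.90, 8.01 and 7.83), apart from the other lymphomas at 7.51 and below. Replicates 5 and 12 were also the highest for Gmnn (8.50 and 8.46). Replicate 9 was lowest for Gmnn (6.81) and for Mcm4 1436708_x_at (7.20).

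Over all 22 arrays the 15 pairs of ring genes, each by its probe set with the highest mean, had Pearson r from 0.86 to 0.97 (median 0.93), which holds the difference between the groups. Within the 13 lymphomas r ran from −0.08 (Mcm2 with Mcm6) to 0.83 (Mcm3 with Mcm5), with a median of 0.38. Cdt1 with the ring genes had r from 0.37 to 0.53 over 22 arrays and from −0.02 to 0.42 within lymphomas. Cdc6 and Mcm10 had r = 0.82 within lymphomas, and Mcm10 and Gmnn 0.76. The values of an array share its RNA, labelling and normalisation, and these correlations are a description.

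Myc showed no correlation with a licensing gene among lymphomas that passed correction. With 13 lymphomas this does not show that no relation exists. Of 10 correlations, each gene against Myc over 13 lymphomas, 0 passed Benjamini-Hochberg adjustment and 2 had a permutation p under 0.05. Cdt1 had r = 0.57 (rho = 0.46, permutation p = 0.0398 and 0.115, adjusted 0.246 and 0.23), which became 0.34 without the 2 lymphomas farthest from the Myc median. Mcm3 had r = −0.55 (rho = −0.57, permutation p = 0.0492 and 0.0442, adjusted 0.246 and 0.23), which became −0.50. While r weakened for Cdt1 and Mcm3 without these 2 lymphomas, it went from −0.21 to −0.63 for Mcm2 and from −0.43 to −0.65 for Gmnn. The r values without these lymphomas were not tested. Against the beta-actin 3′ to 5′ difference, Cdt1 had r = 0.68 (rho = 0.58, permutation p = 0.0117 and 0.0432, adjusted 0.117 and 0.144) and Mcm10 had r = 0.59 (rho = 0.63, permutation p = 0.0366 and 0.0238, adjusted 0.183 and 0.119). Gmnn had r = 0.46 (rho = 0.66, permutation p = 0.111 and 0.0174, adjusted 0.278 and 0.119). None of those 10 passed adjustment either.

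The genes whose pattern was most like the mean of the centred ring genes were ranked over all genes tested outside the licensing set. Within that set Mcm10, which is not in the mean, had r = 0.98 over 22 arrays and 0.84 within lymphomas. Over 22 arrays they were Bcat1, a branched-chain aminotransferase (r = 0.98), Cdk1 (0.98), Cdc20 (0.98), the mitotic checkpoint factor Trip13 (0.98) and the mitotic kinase Plk1 (0.98). Myc had r = 0.75 on this scale and Cdt1 0.46. Bcat1, with a wild type mean below the filter level, was at least 5.25-fold higher at the first step and rose 3.99-fold at the second. Within the 13 lymphomas the list was E2f1 (0.88), Dazap1 (0.86), Cdk1 (0.85), Thop1 (0.85) and the tyrosyl-tRNA synthetase Yars (0.82), and Myc had r = −0.30. Cdk1 was on both lists.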

How the data were processed

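The series holds 22 Affymetrix MOE430A arrays, 1 per sample: 4 wild type, 5 premalignant and 13 malignant. The deposited values are intensities that the authors made with GCRMA, per the submitters' processing notes, which corrects background from probe sequence, normalises arrays and summarises probe sets. The sources used here name neither its version nor whether the arrays were processed jointly. Linear intensities were turned into log2. Groups came from the labels and genes from the platform's annotation table, in which 0 of the 23 probe sets described had several symbols. No pair of arrays was identical (highest r 0.991).

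Non-control probe sets with log2 above 4 on at least 4 arrays (10789) were fitted with limma 3.58.1 (lmFit, eBayes, two-sided) in R 4.3.3, each comparison on its own 2 groups. A probe set was called where its p, adjusted over these 10789 by Benjamini-Hochberg, was under 0.05. For folds, group means under log2 4 were raised to 4 and the fold written as at least N-fold. The fit was tested on simulated data. Differences within arrays were tested by exact permutation and correlations by permutation (scipy 1.17.1). The E2F, E-box and CCAAT words were searched in RefSeq promoters.

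Every licensing probe set and Myc are named, with up to 3 called genes of largest change per list and comparison and the 5 genes outside the licensing set most like the ring. Other related genes named were chosen after their values were seen. Genes of the lists were read through their probe set with the highest mean. The members and lists were chosen with earlier results of these data known. Alternatives were other filters, log2 of intensity plus 16, median and spike centring, gene-level tests, 1 fit over 3 groups, array weights, the replicate number as a block, and each array left out.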

Additional observations from a re-analysis of the deposited data

Results flagged for a closer look

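Of 46 groups of 4 or 5 values checked by Dixon's test for a single value far from the rest, 5 stood out, and chance gives about 1 in 20. 4 of the 5 are premalignant replicate 1, which also had the lowest mean correlation with its own group (0.940). For Mcm4 1436708_x_at it was the lowest premalignant array at 5.36, the next being 7.05. For Cdt1 1424144_at it was the highest at 7.65, the next being 7.01. The same array was highest on 2 probe sets below the filter, Mcm10 1433407_at (2.65, next 2.51) and Cdt1 1455791_at (3.46, next 3.01), where values carry little signal. Wild type replicate 2, whose mean correlation with its group was the lowest among wild type arrays (0.956), was highest for Mcm7 1438320_s_at at 9.94, the next being 9.11. Without both arrays, 18 of 20 licensing probe sets were still higher in premalignant than in wild type cells.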

How the results depend on the processing

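At the first step the count of licensing probe sets called higher was 18 without any single array (range 18 to 18) and 9 of 10 genes with 1 probe set or the mean of the probe sets per gene. At the second step, main count 15, leaving out 1 array gave 11 (without premalignant replicate 5) to 16 (without malignant replicate 9), spike centring gave 9 and gene-level tests 7 and 7. The count lower, 1 in the main analysis, was 2 with no filter and 0 with spike centring and at gene level, and 1 to 1 without any single array. Lymphomas against wild type gave 17 (without wild type replicate 3) to 18 without 1 array, 9 and 9 genes, and 2 lower with no filter; the count lower was 0 to 0 without 1 array here and at the first step.

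Whether the replicate numbers pair the samples could not be settled. Deviations from the group means had r between −0.06 and 0.25 for wild type with premalignant arrays of the same number. Arrays of different number were not compared, so these r have no reference level. With the replicate block, 18 were higher at the first step and 6 at the second; the same arrays without the block gave 7. Blocked, 17 were higher in lymphomas against wild type. Cdt1 1424144_at then passed at the second step (0.56, adjusted p = 0.0461).

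Over all probe sets, the counts higher at the first step were 840 (spike centring), 818 and 913 (gene level), and lower 159 (spike centring). At the second step they were 1597 and 1515 (gene level) and 1516 (replicate block) higher, and 7315 (no filter), 1413 (stricter filter), 1070 (spike centring), 1114 and 1227 (gene level) and 1379 (replicate block) lower. For lymphomas against wild type they were 2045 and 2002 (gene level) higher, and 11113 (no filter), 1942 (stricter filter), 1299 (spike centring), 1911 and 1975 (gene level) lower. Leaving out 1 array gave 999 to 1450 higher and 942 to 1370 lower, 1938 to 2544 and 1866 to 2192, and 2921 to 3316 and 2901 to 3287 in the 3 comparisons.

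Cdt1 minus Gmnn ranged without 1 array from −1.92 to −1.44, −0.28 to −0.032 and −2.09 to −1.60 in the 3 comparisons. Signs turned for changes near 0 that passed under none of these settings, and for Mcm3. Cdt1 1424143_a_at at the first step was 0.24 (spike centring), 0.035 (gene mean), 0.060 (block, and its arrays unblocked) and −0.092 to 0.060 without 1 array. Cdt1 1424144_at was −0.058 to 0.16 without 1 array and −0.039 without both arrays of lowest correlation. Orc2 at the first step was 0.073 (spike centring) and 0.29 (gene mean), and Mcmbp at the second 0.045 (spike centring). Without 1 array, Yars at the second step ranged from −0.076 to 0.29, and Cops6 in lymphomas against wild type from −0.078 to 0.10. With the block, and with its arrays unblocked, Cops6 was −0.048 and Prkdc −0.10. Mcm3 1426653_at at the second step was 0.56 as the gene's mean, and its call against wild type was lost without wild type replicate 3 (adjusted p = 0.0561). Calls lost at the second step were 4 without premalignant replicate 5, 3 without replicate 4 and 2 without replicate 1. Where no value shows the cause, the cause was not tested. Probe sets near log2 4 limit the folds of Cdc6 and Mcm10.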

Other observations

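RefSeq genes within 1000 bases of a licensing gene were looked up after the results were known, and their values are given without a reading. Prkdc, the catalytic subunit of the DNA-dependent protein kinase, starts 43 bases from Mcm4. Its probe set changed by −0.41 at the first step (adjusted p = 0.304) and by 0.65 at the second (adjusted p = 0.0582), where Mcm4 1416214_at changed by 0.79 and 0.55. Cops6, a subunit of the COP9 signalosome, lies 598 bases from Mcm7. It changed by 0.52 (adjusted p = 0.165) and −0.51 (adjusted p = 0.127), where Mcm7 1438320_s_at rose by 1.25 and 0.70. Ap4m1, which overlaps Mcm7, was below the filter.

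The 3 probe sets below the filter read low throughout: Mcm3 1420029_at between 3.36 and 3.88, Mcm10 1433407_at between 2.37 and 2.65 and Cdt1 1455791_at between 2.77 and 3.46 over the 22 arrays.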
